A study of Homo sapiens with 6 samples.

Results

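Transcript levels of 10 intermediate filament genes were examined in HK-2 cells, a human kidney line made by immortalizing proximal tubule epithelium. The genes were the keratins KRT7, KRT8, KRT18, KRT19 and KRT80, vimentin (VIM), nestin (NES) and the lamins LMNA, LMNB1 and LMNB2. Each was found by its symbol as 1 row of a table of 58825 genes, and all 10 were expressed well enough to be tested. Poly(A) RNA had been sequenced from 3 untreated cultures (Control) and from 3 cultures given 25 µg/ml of OX-LDL, oxidized low-density lipoprotein, for 48 h. The labels give no genetic change for either group and no time for Control, and they do not say whether the 3 cultures of a group were grown separately, so p-values measure the spread between these libraries, which may be technical. All 6 libraries come from 1 cell line.

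Intermediate filaments are rope-like polymers that give cells mechanical strength. Keratins form them in epithelial cells as obligate pairs of a type I and a type II protein, and simple epithelia such as the kidney tubule mainly pair KRT8 with KRT18. Vimentin and nestin are typical of mesenchymal and progenitor cells, although cultured tubular cells also make vimentin, and lamins line the inside of the nuclear envelope. The question was whether keratins and vimentin moved together in OX-LDL.

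The deposited counts summed to 62561347 to 76797607 per library. Counts of 4, 8 and 12 were 3.26, 2.95 and 2.13 times as frequent as their neighbours, which was read as about 4 counts for each read pair, although no source used here states it. The first principal component (34.8% of the variance) separated the groups, and OX-LDL replicate 2 stood apart from the other libraries on the second (17.7%). Of 12 proximal tubule markers, 4 reached a mean of 0.1 FPKM (fragments scaled by transcript length and library size). PAX8 and GGT1 averaged above 1 FPKM in both groups (of 2 rows named GGT1, that with more counts was used), whereas the uptake receptor LRP2 and the anion transporter SLC22A6 had no count in any library. Against the labelled cell type, most defining transcripts of the proximal tubule were thus at or near 0.

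The stretch just before the annotated start is shown for 3 genes that rose in OX-LDL, VIM, NES and LMNB1, to give the sequence that precedes these transcripts. The windows are RefSeq sequence of GRCh38.p14, 250 bases each and written 5′ to 3′ along the gene's strand: VIM at chr10:17227991-17228240 (plus strand), NES at chr1:156677408-156677657 (minus strand) and LMNB1 at chr5:126776373-126776622 (plus strand). Capitals mark matches on either strand to 5 motifs. The TATA box was searched as TATAAA and the box named for its letters as CCAAT. The motif called the GC box was searched as GGGCGG, that of the AP-1 factors as TGANTCA and the CHR element of cell cycle genes as TTTGAA.
VIM: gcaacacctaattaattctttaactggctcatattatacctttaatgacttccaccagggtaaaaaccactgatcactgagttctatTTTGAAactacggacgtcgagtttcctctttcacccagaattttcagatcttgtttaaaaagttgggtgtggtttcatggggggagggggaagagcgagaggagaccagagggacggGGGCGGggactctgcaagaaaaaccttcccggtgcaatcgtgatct
NES: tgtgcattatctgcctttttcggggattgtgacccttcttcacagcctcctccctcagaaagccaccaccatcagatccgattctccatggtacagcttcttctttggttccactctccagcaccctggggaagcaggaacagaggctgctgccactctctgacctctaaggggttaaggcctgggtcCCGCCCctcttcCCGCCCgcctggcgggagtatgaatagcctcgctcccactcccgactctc
LMNB1: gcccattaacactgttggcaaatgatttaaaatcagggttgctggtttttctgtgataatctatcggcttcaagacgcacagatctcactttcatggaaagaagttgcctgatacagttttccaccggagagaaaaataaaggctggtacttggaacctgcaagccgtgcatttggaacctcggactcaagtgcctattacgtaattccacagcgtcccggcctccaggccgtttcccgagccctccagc

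The VIM window held 1 GC box and 1 CHR element, the NES window held 2 GC boxes, and this LMNB1 window held no match to the 5 motifs. Among 35116 windows of the same length, 42.6% held a GC box, 13.3% a CHR element, 32.0% a CCAAT box, 10.7% a TATA box and 6.57% an AP-1 site. RefSeq windows were given for 6 of the 10 genes, 9 windows in all, because LMNA had 3 and LMNB1 had 2. The other LMNB1 window held 4 GC boxes and 1 CCAAT box. The 3 LMNA windows held 1, 1 and 2 GC boxes, and the first of them also held 1 CCAAT box. The LMNB2 window held 1 GC box and 1 CHR element, and the KRT8 window held no match. That KRT8 window (chr12:52926470-52926719, minus strand) lay inside the span of KRT8 used here, 52897187 to 52949920, and not before its 5′ end. The other LMNB1 window and the LMNA windows after the first also lay inside their gene's span. The motifs were not overlapping in the windows shown, and a match is a description of the letters only.

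OX-LDL libraries held more transcript of most of the filament genes. Genes are said to be called at an adjusted p under 0.05, by the quasi-likelihood test of edgeR with Benjamini-Hochberg adjustment over the 19510 genes that averaged 0.1 FPKM or more. Every adjusted p given for a fold change is from that test unless another is named. Of the 10 genes, 6 were called and all 6 were higher in OX-LDL (KRT8, KRT19, VIM, NES, LMNA and LMNB1), where 15.3% of all genes tested were called, 7.91% higher and 7.42% lower. Among genes averaging 10 FPKM or more the share called higher was 18.6%. KRT19, VIM and NES also passed the limits for a DEG, a fold change above 2 or below 0.5 and p under 0.05, which 6.36% of all genes passed, 3.19% upward and 3.16% downward. The 2 groups did not overlap in FPKM for 8 of the 10 genes, all with higher OX-LDL values, where 37.2% of all genes tested did not overlap, 16.8% with higher and 20.5% with lower OX-LDL values. The median log2 fold change of the 10 genes was 0.70, and that of all genes was -0.0043. The 10 genes, and the lists below, were chosen with earlier results of these data known. The paper itself names KRT19, NES and VIM in its account of these data. The counts beside all genes therefore describe the genes chosen and are no test of the family.

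**Figure D1:**
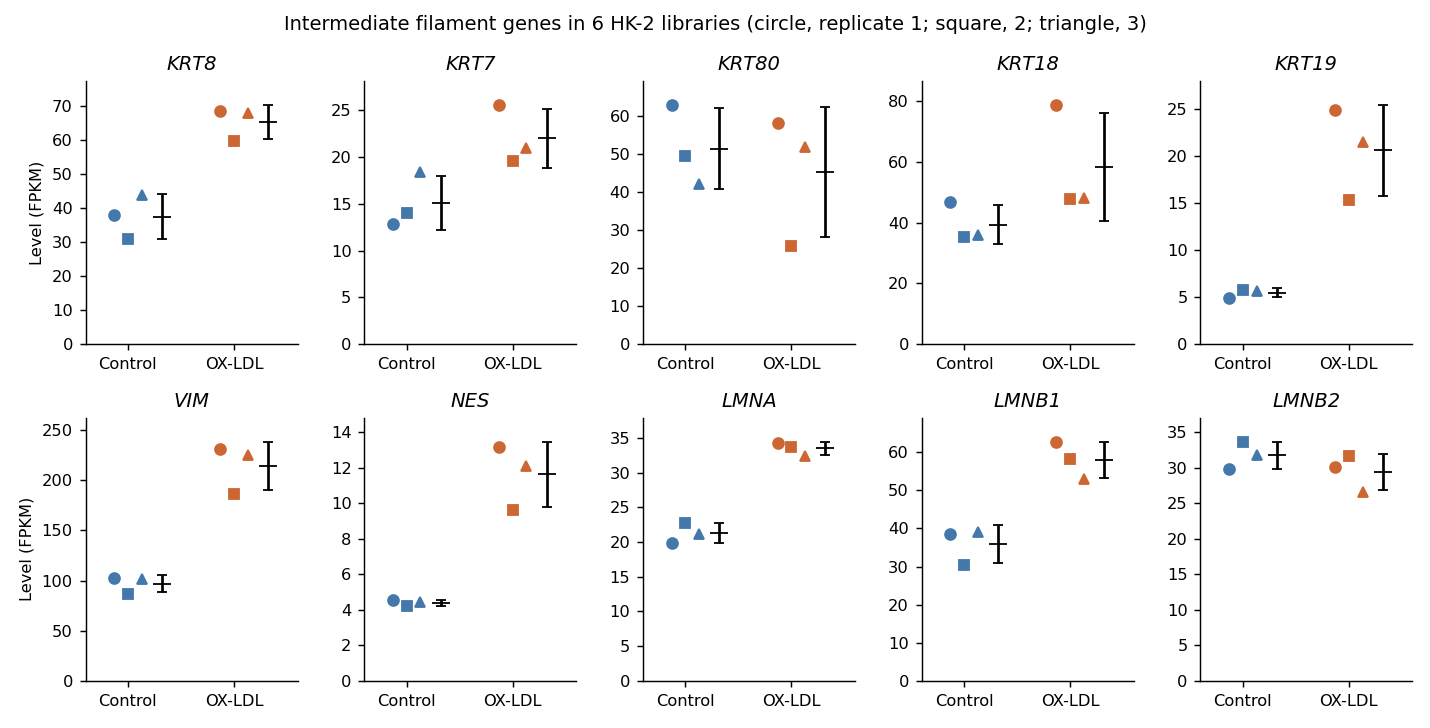
Level of each of the 10 genes in FPKM (vertical axes, from 0) in the 3 Control (blue) and 3 OX-LDL (orange) libraries, with the mean ± SD in black and a marker shape for each replicate number. The groups separate for 8 genes and overlap for KRT80 and LMNB2.

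Of the 3 type II keratins, KRT8 was called and KRT7 and KRT80 were not. KRT8 (ENSG00000170421; chromosome 12, 52897187 to 52949920), the type II keratin of simple epithelia, stood at 37.9, 30.9 and 43.8 FPKM in Control replicates 1 to 3 and at 68.6, 59.7 and 67.9 FPKM in OX-LDL replicates 1 to 3. Each OX-LDL library was above each Control library. The KRT8 level averaged 37.5 ± 6.50 FPKM in the 3 Control libraries, and the OX-LDL average was 65.4 ± 4.96 FPKM (SD, n = 3). KRT8 rose by 0.83 ± 0.14 on the log2 scale (standard error, edgeR adjusted p = 0.0116). KRT7 (ENSG00000135480; chromosome 12, 52232520 to 52252186), a type II keratin of ductal and glandular epithelia, was at 12.9, 14.1 and 18.4 FPKM in Control and at 25.6, 19.5 and 21.0 FPKM in OX-LDL. The groups did not overlap, but the highest Control library lay close to the lowest OX-LDL library. Its log2 fold change, 0.58 ± 0.16 (standard error), missed the threshold with an edgeR adjusted p of 0.0539. DESeq2 called KRT7, with an adjusted p of 0.00707, and over the 15 alternatives its adjusted p ranged from 0.00707 to 0.165, 4 of them past the threshold.

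KRT80 (ENSG00000167767; chromosome 12, 52168996 to 52192014), a type II keratin found in many epithelia, was at 62.8, 49.3 and 41.9 FPKM in Control and at 57.9, 25.8 and 51.7 FPKM in OX-LDL. The groups overlapped, and the lowest value was that of OX-LDL replicate 2, the library that stood apart on the second principal component. The log2 fold change was -0.16, with a 95% interval of -0.75 to 0.43 and an edgeR adjusted p of 0.776. Without OX-LDL replicate 2 it was 0.12, and without Control replicate 1 it was 0.03. The spread of KRT80 within groups was wider than that of 91.7% of the genes averaging 1 FPKM or more.

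Of the 2 type I keratins, KRT19 was called and KRT18 was not. KRT19 (ENSG00000171345; chromosome 17, 41523617 to 41528308), the smallest keratin and a marker of ductal and injured epithelium, was at 4.92, 5.81 and 5.68 FPKM in Control and at 24.9, 15.4 and 21.5 FPKM in OX-LDL. The lowest OX-LDL value was still well above the highest Control value. KRT19 rose 3.84-fold, or 1.94 ± 0.18 on the log2 scale (standard error, edgeR adjusted p = 0.00207), the largest change of the 10 genes. It stayed between 1.79 and 2.11 when any 1 library was left out.

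KRT18 (ENSG00000111057; chromosome 12, 52948871 to 52952900), the usual partner of KRT8, was at 46.8, 35.1 and 36.1 FPKM in Control and at 78.8, 47.9 and 48.1 FPKM in OX-LDL. Replicate 1 was the highest library of each group, and the lowest OX-LDL value was just above the highest Control value. The log2 fold change, 0.59 ± 0.22 (standard error), had an adjusted p of 0.123 with edgeR and 0.0354 with DESeq2, and a range of 0.0354 to 0.298 over the 15 alternatives. Without OX-LDL replicate 1 the log2 fold change was 0.32. KRT8 and KRT18 lie on opposite strands and share 525 bases of exon, 16.3% of the exonic length of KRT18 and 7.63% of that of KRT8, and whether the counting used strand is not given in the sources used here, so reads of the shared stretch may have been given to either gene. Processed pseudogenes named after KRT8 held 2.20% to 4.16% as many counts as KRT8 itself, and those of KRT18 held 0.875% to 1.51% as many as KRT18, so reads lost to near-identical copies are a further uncertainty for these genes.

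Vimentin was the most abundant of the 10 transcripts in both groups. VIM (ENSG00000026025; chromosome 10, 17228241 to 17237593) was at 102, 87.1 and 102 FPKM in Control and at 231, 187 and 226 FPKM in OX-LDL. All 3 OX-LDL libraries lay far above Control, with OX-LDL replicate 2 the lowest of the 3. VIM was called (log2 fold change 1.17 ± 0.11, edgeR adjusted p = 0.00211), and the log2 fold change stayed between 1.09 and 1.26 when any 1 library was left out. The antisense genes VIM-AS1 and AL133415 overlap VIM on the other strand but held only 0.0987% and 0.316% as many counts. The FPKM values divide by the length of all annotated exons, so they understate genes with many annotated transcripts. Per kilobase of the principal transcript VIM was again the highest of the 10, while KRT8 moved from rank 4 to rank 2 in Control and KRT80 from rank 2 to rank 4.

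NES (ENSG00000132688; chromosome 1, 156668763 to 156677407), a large filament protein that assembles with vimentin, was the least abundant of the 10 genes. It stood at 4.53, 4.22 and 4.46 FPKM in Control and at 13.2, 9.61 and 12.1 FPKM in OX-LDL. Control libraries were nearly alike, and the lowest OX-LDL library was again replicate 2. NES rose 2.70-fold, or 1.43 ± 0.13 on the log2 scale (standard error, edgeR adjusted p = 0.00184).

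Of the 3 lamins, LMNA and LMNB1 were called and LMNB2 was not. LMNA (ENSG00000160789; chromosome 1, 156082573 to 156140081), which encodes lamins A and C, was at 19.9, 22.8 and 21.1 FPKM in Control and at 34.3, 33.7 and 32.4 FPKM in OX-LDL. Libraries of a group were close together, and the spread of LMNA within groups was wider than that of only 6.89% of the genes averaging 1 FPKM or more. LMNA rose by 0.69 ± 0.07 on the log2 scale (standard error, edgeR adjusted p = 0.00235). LMNB1 (ENSG00000113368; chromosome 5, 126776623 to 126837020), a B-type lamin that stays anchored in the membrane, was at 38.5, 30.3 and 39.1 FPKM in Control and at 62.6, 58.3 and 53.1 FPKM in OX-LDL. The groups did not overlap, and LMNB1 rose by 0.72 ± 0.12 on the log2 scale (standard error, edgeR adjusted p = 0.0129).

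LMNB2 (ENSG00000176619; chromosome 19, 2427638 to 2456959), the other B-type lamin, was at 29.8, 33.7 and 31.8 FPKM in Control and at 30.1, 31.7 and 26.7 FPKM in OX-LDL. The groups overlapped. Its log2 fold change was -0.08, with a 95% interval of -0.24 to 0.09 and an edgeR adjusted p of 0.602, so a rise as large as that of LMNA or LMNB1 lay outside the interval.

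**Figure D2:**
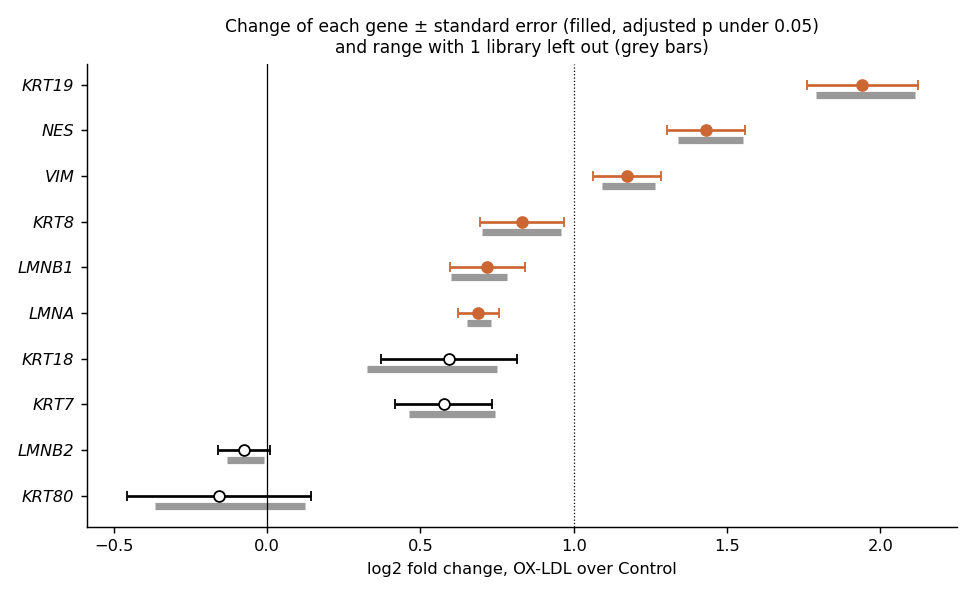
Log2 fold change of OX-LDL over Control for each gene (horizontal axis; circles, bars are the standard error, filled where the adjusted p was under 0.05), with the range over the 6 fits that each leave out 1 library in grey and a dotted line at a fold change of 2. KRT19 (1.94), NES (1.43) and VIM (1.17) lie beyond the dotted line, and the grey bar of KRT80 crosses 0.

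Whether members moved together was asked within each library, through the log2 ratio of 7 pairs in FPKM. With 3 libraries against 3, a two-sided exact permutation test cannot give a p under 0.1, so no pair could pass the threshold with the test used here. VIM stood at 2.70, 2.82 and 2.32 times KRT8 in Control and at 3.36, 3.13 and 3.32 times KRT8 in OX-LDL. The groups did not overlap, and the log2 ratio was higher by 0.33 in OX-LDL (exact permutation p = 0.1, adjusted over the 7 pairs 0.175). Against KRT18, VIM was 2.18, 2.48 and 2.82 times as high in Control and 2.93, 3.90 and 4.69 times as high in OX-LDL, a log2 difference of 0.60 with no overlap (exact permutation p = 0.1, adjusted 0.175). VIM and KRT8 both rose in OX-LDL, and the larger factor of VIM was seen in these libraries without a test that could pass the threshold.

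Within the keratins, KRT19 over KRT18 differed by 1.35 on the log2 scale with no overlap between groups (exact permutation p = 0.1, adjusted 0.175). KRT8 over KRT18 differed by 0.28 (exact permutation p = 0.3, adjusted 0.35) and KRT7 over KRT8 by -0.26 (exact permutation p = 0.2, adjusted 0.28), and the groups overlapped for both. For the lamins, LMNB1 over LMNB2 was higher by 0.81 in OX-LDL with no overlap (exact permutation p = 0.1, adjusted 0.175). LMNB1 over LMNA differed by 0.04 with overlap (exact permutation p = 1.0, adjusted 1.0), and its sign turned when Control replicate 2 or OX-LDL replicate 1 was left out.

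Sums over the genes are given as a description. VIM made up 38.2%, 39.2% and 41.1% of the summed FPKM of VIM and the 5 keratins in Control and 47.4%, 52.6% and 51.8% in OX-LDL. The 5 keratins themselves summed to 165, 135 and 146 FPKM in Control and to 256, 168 and 210 FPKM in OX-LDL, so the keratin total was also higher in each OX-LDL library. KRT19 supplied 9.5%, 14.2% and 13.6% of the type I total (KRT18 and KRT19) in Control and 24.0%, 24.3% and 30.9% in OX-LDL. The ratio of type II to type I was 2.20, 2.30 and 2.49 in Control and 1.47, 1.66 and 2.02 in OX-LDL on the FPKM scale, but the groups overlapped per kilobase of the principal transcript. LMNB2 made up 33.8%, 38.8% and 34.6% of the 3 lamins in Control and 23.7%, 25.6% and 23.8% in OX-LDL.

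**Figure D3:**
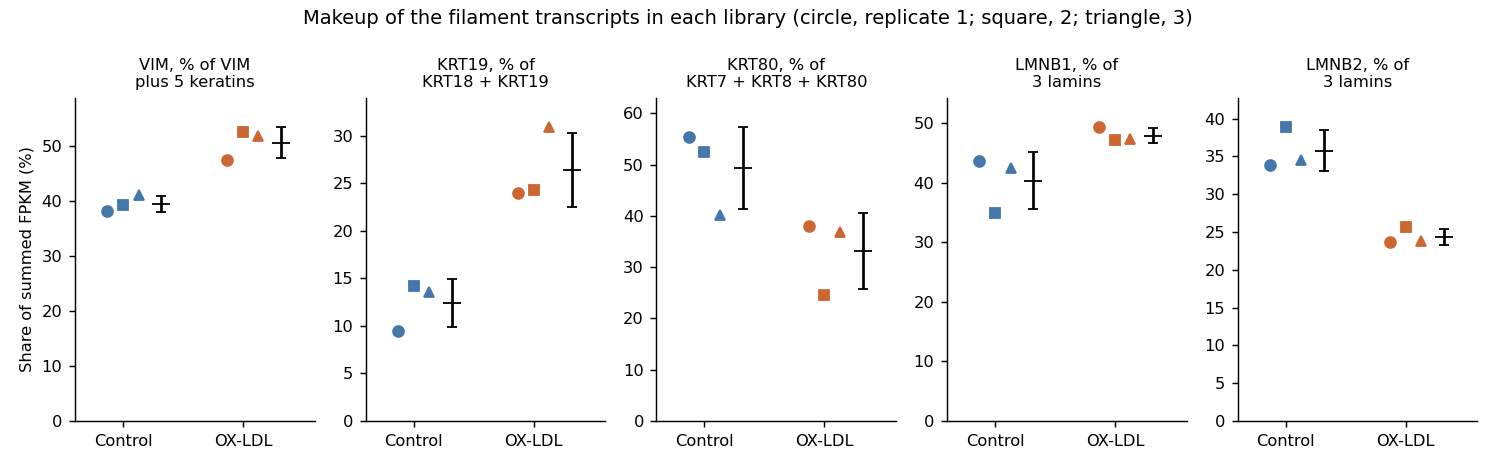
Share of summed FPKM (vertical axes, percent, from 0) taken by VIM, KRT19, KRT80, LMNB1 and LMNB2 within the set named above each panel, by library, with the mean ± SD in black. The VIM share lies between 38.2% and 41.1% in Control and between 47.4% and 52.6% in OX-LDL.

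The genes whose pattern over the 6 libraries was most like that of KRT19 were ACTBL2, VNN2 and TSPAN13, by the root mean square difference of centred log2 normalized counts (0.114, 0.129 and 0.169) among 12258 genes. NES ranked 15 and VIM 71 by the same measure. For VIM they were PBK, HMMR and KIF20A (0.0367, 0.0456 and 0.0612), and KRT8 ranked 132. The other keratins ranked 757 (KRT7), 1056 (KRT18), 1438 (KRT19) and 9041 (KRT80) from VIM. This measure also grows with a difference in the size of a change. KRT19 and VIM were both called higher, and the larger rise of KRT19 adds to its distance from VIM.

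Most other keratins were not detected. Of 50 further keratin genes, 38 did not exceed 12 counts (3 read pairs on that reading) in any library, 32 had no count at all, and 5 could be tested. KRT15, a basal-type I keratin named after its values were seen, was the 1 called, from 0.144 ± 0.0303 to 0.492 ± 0.111 FPKM (SD, n = 3 per group). Of all genes tested 15.3% were called, 7.91% higher and 7.42% lower. KRT10 had a log2 fold change of -0.28 (edgeR adjusted p = 0.279) and KRT81 of 0.16 (adjusted p = 0.899), the latter with a sign that turned when Control replicate 2 or 3 or OX-LDL replicate 3 was left out.

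Of 11 other non-keratin filament genes, 7 could be tested, and 4 were called, all higher, where 7.91% of all genes tested were called higher. The median log2 fold change was 0.80 against -0.0043 for all genes. INA (internexin), a neuronal filament protein, rose from 17.2 ± 1.11 to 29.3 ± 0.740 FPKM (log2 fold change 0.80, edgeR adjusted p = 0.00248). SYNC, a muscle filament partner, rose by 1.36, NEFL (named after its values were seen), the light neurofilament, by 1.28 and SYNM, synemin, by 0.52 on the log2 scale. The call of SYNM (edgeR adjusted p = 0.0428) was lost in 9 of 15 alternatives, where the adjusted p reached 0.117. NEFH, the heavy neurofilament, was the most abundant of the list, at 32.3 ± 1.70 and 34.0 ± 2.58 FPKM, and did not pass the test (log2 fold change 0.11, adjusted p = 0.454).

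Of 10 genes for proteins that link or organise filaments, all were tested and 4 were called, all higher. The median log2 fold change was 0.42, and 7.91% of all genes tested were called higher. PLEC, plectin, which ties filaments to one another and to adhesion sites, rose by 0.86 on the log2 scale, from 10 ± 0.940 to 17.8 ± 2.43 FPKM (edgeR adjusted p = 0.00734). TCHP, trichoplein, rose by 0.97, DST, dystonin, by 0.32 and EPPK1, epiplakin (named after its values were seen), by 2.11 on the log2 scale from under 0.1 FPKM. FAM83H, which organises keratin filaments, did not pass (log2 fold change 0.51, edgeR adjusted p = 0.449). The call of DST (edgeR adjusted p = 0.0477) was lost in 10 of 15 alternatives and that of TCHP (0.0169) in 4. The count depended on the libraries. It was 1 without Control replicate 1 or 2 or without OX-LDL replicate 1. Without Control replicate 3 or OX-LDL replicate 3 it was 2. PLEC kept its call in all 15 alternatives, so EPPK1 was not called in the fits with a count of 1. EPPK1 stood at 0.240, 0.0734 and 0.174 FPKM in OX-LDL replicates 1 to 3.

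Of 15 lamina partners, 14 were tested, 1 was called higher and 2 were called lower, and the median log2 fold change was -0.03. Among all genes tested 15.3% were called, 7.91% higher and 7.42% lower. LBR, the lamin B receptor, rose by 0.49 on the log2 scale (edgeR adjusted p = 0.0105). SYNE1, nesprin-1, which links the nuclear envelope to the cytoskeleton, fell by 0.68 on the log2 scale (adjusted p = 0.00231) and LEMD2 fell by 0.42 (adjusted p = 0.0166), a call lost in 3 of 15 alternatives. TOR1AIP1 had a log2 fold change of -0.65 and missed the threshold (adjusted p = 0.0676). Of 5 lamin processing enzymes, FNTB, the beta subunit of the farnesyltransferase that modifies B-type lamins and prelamin A, was the 1 called, with a log2 fold change of 0.81 (adjusted p = 0.00717). The protease ZMPSTE24 (-0.24), RCE1 (-0.44) and FNTA (0.16) did not pass.

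**Figure D4:**
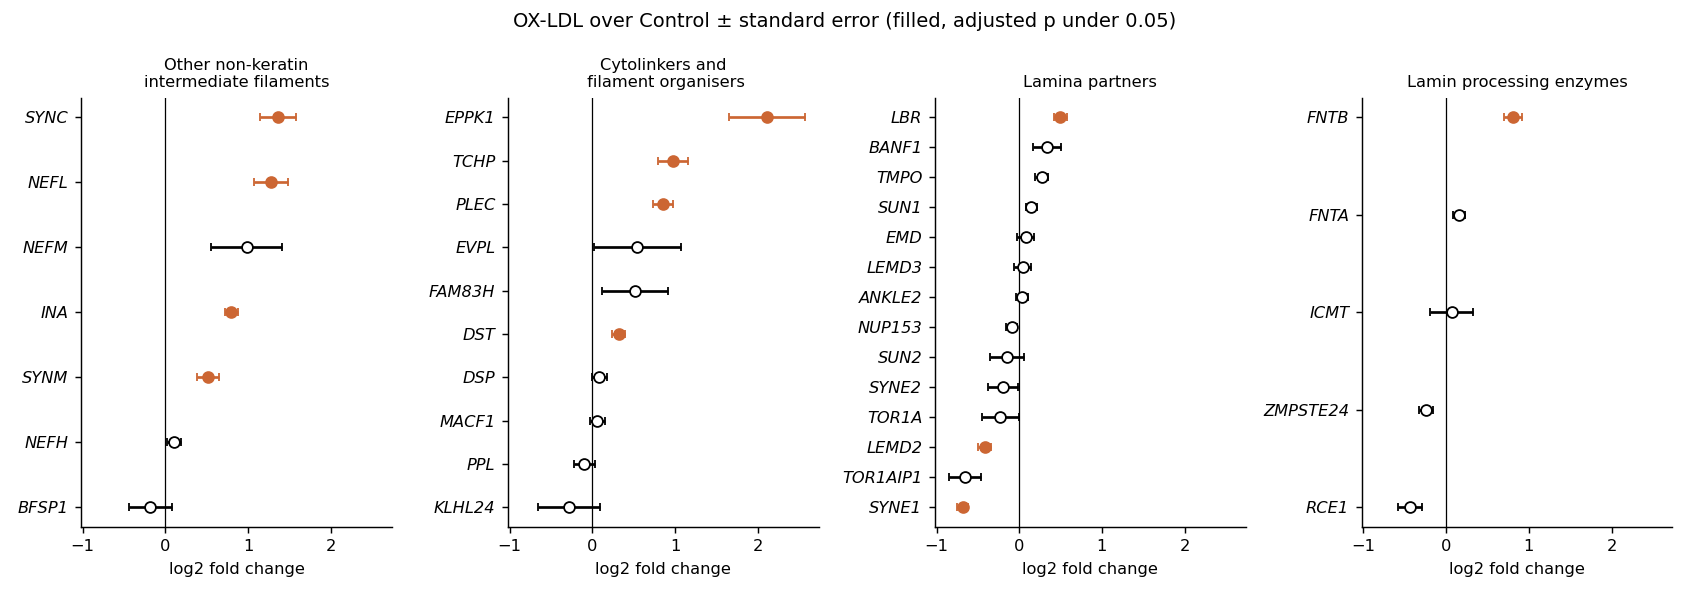
Log2 fold change of OX-LDL over Control (horizontal axes; circles, bars are the standard error, filled where the adjusted p was under 0.05) for the tested genes of 4 lists. All 8 called genes of the first 2 lists lie above 0, while the lamina partners lie on both sides.

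Some markers of dividing cells were higher in OX-LDL, as LMNB1 and VIM were. Of 15 proliferation markers, 7 were called, all higher, where 7.91% of all genes tested were called higher. Among the 7 were KIF20A (1.25), BUB1 (1.09), CCNA2 (1.09) and CCNB1 (0.91 on the log2 scale). The other 8 were not called, among them the DNA replication genes MCM2 (-0.31), MCM3 (-0.35), MCM6 (-0.18), MCM5 (0.07) and PCNA (0.02), and the OX-LDL values of MCM2 and MCM3 were all below those of Control. The summed level of the 15 was 770 to 815 FPKM in Control and 930 to 988 FPKM in OX-LDL. Their part in the filament values was not tested. Of 8 fibroblast markers 2 were tested and none was called by edgeR's quasi-likelihood test, with a summed level of 10.1 to 12 FPKM in Control and 8.82 to 14.1 FPKM in OX-LDL that came mostly from LUM (log2 fold change 0.18). DCN had no count in any library. Endothelial and leukocyte markers summed to under 1 FPKM in every library, and the urothelial list had 1 tested gene, UPK3B (log2 fold change 0.06, adjusted p = 0.919). Of the 4 proximal tubule markers tested, 3 had a negative log2 fold change and 1 was called, lower in OX-LDL. That was PAX8, a transcription factor of the renal epithelium, which fell by 1.23 on the log2 scale (adjusted p = 0.0182, lost in 4 of 15 alternatives). Among all genes tested 7.42% were called lower. All 3 markers with a negative log2 fold change passed the limits for a DEG, which 3.16% of all genes passed downward. Those other than PAX8 averaged under 1 FPKM in both groups. GGT1 did not pass the test (log2 fold change 1.02, adjusted p = 0.336). It stood at 3.13, 18.2 and 3.88 FPKM in Control and at 15.8, 17.7 and 16.1 FPKM in OX-LDL. Over the 15 alternatives its adjusted p ranged from 0.00296 to 0.558. In bulk RNA, fewer cells of a type and less RNA per cell cannot be told apart.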

How the data were processed

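Poly(A) RNA-seq of 6 HK-2 libraries was used, grouped by GEO's labels. Per the labels, second strands were U-labelled, and the submitters' processing notes name cutadapt 1.9, HISAT2 2.0.4, StringTie 1.3.4d, edgeR, DESeq2 and GRCh38. The authors deposited estimated counts, not scaled for library size, and FPKM values, scaled by the authors for length and library size, with a count of 0 listed at 0.0001 FPKM. The estimated counts were whole numbers and needed no rounding.

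edgeR 4.0.16 (R 4.3.3) was run on the counts with TMM factors, glmQLFit and glmQLFTest, with the group as the only term, over genes averaging 0.1 FPKM or more. Each standard error was derived from the log2 fold change and its F statistic. The 95% intervals span 1.96 of these standard errors on each side. That normal multiplier makes them somewhat too narrow with 3 libraries a group. Totals of 62561347 to 76797607 counts set the precision, and counts are not independent molecules. The chi-square between libraries of a group was 52.0 to 89.6 per gene, so none was deposited more than once. Same-numbered libraries did not deviate together (r from -0.109 to -0.0015), so numbers were not used as pairs. Pair ratios were tested with exact permutation tests. Alternatives were DESeq2 1.42.0, limma 3.58.1, other normalizations, minimum levels, a replicate block and leaving out each library; counts divided by 4 and levels per principal transcript were added after seeing the data. The fits were tested on simulated data.

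The members and lists were chosen with earlier results of these data known, and the motifs and the windows printed were chosen after the values were seen. Named genes are the 10 members, up to 4 genes per list, by smallest p-value among those averaging 1 FPKM or more, and the 3 genes nearest in pattern to KRT19 and VIM. KRT15, NEFL, EPPK1 and the marker genes given only as levels fall outside this rule. An item of the linker list is not reported here and was left out of its counts.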

Additional observations from a re-analysis of the deposited data

How the results depend on the processing

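The 6 called filament genes stayed called, with the same direction, in each of the 15 alternative fits. Over the 10 genes and their alternatives, 142 values kept their direction and side of the threshold, 6 passed it newly (KRT7 and KRT18) and 2 reversed, both for KRT80 (0.03 without Control replicate 1, 0.12 without OX-LDL replicate 2, lowest -0.37 with 1 library left out). The replicate block called 1636 genes where 2991 were called without it, and KRT18 gained its call under the block (adjusted p = 0.0361). Leaving out 1 library gave 1161 to 2943 genes called overall and 1 to 4 linker genes, and limma called 2 linker genes at either pseudocount. Where 1 linker gene was called it was PLEC, so EPPK1 was not called in those fits. With a minimum mean of 1 FPKM 0 other keratins were called by edgeR, because KRT15 was below it and not tested. DESeq2 called 4430 genes, 5 lamina partners and 2 lamin processing enzymes. Log2 fold changes reversed for UPK3B (-0.14 without Control replicate 3, -0.20 without OX-LDL replicate 3, highest 0.20) and KRT81 (-0.12, -0.21 and -0.25 without Control replicate 2, Control replicate 3 and OX-LDL replicate 3, highest 1.16), and the LMNB1 over LMNA ratio reversed without Control replicate 2 (-0.13) or OX-LDL replicate 1 (-0.0023; highest 0.14). The other non-keratin filament genes called were 3 or 4, and NEFL was below the minimum mean of 1 FPKM and not tested there. SYNM lost its call in 9, DST in 10, TCHP and PAX8 in 4 and LEMD2 in 3 of 15 alternatives. The cause of these losses was not tested. With 3 libraries a group, changes as variable as those of KRT80 and KRT18 were poorly resolved.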
